A study of Sus scrofa with 54 samples.

Results

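Solute carrier (SLC) genes encode membrane proteins that move nutrients, ions, vitamins and metabolites across cell and organelle membranes. In piglet ileum, 119 genes were followed whose symbol starts with SLC and a digit, of 6765 genes that the array's annotation names with a single symbol. SLC25A20 is not reported here. Each gene was represented by the probeset with the highest mean over the 54 arrays. The rule for members used the symbol and this mean and no comparison between groups, but it was set with earlier results of these data known. Ileal tissue had been collected from piglets, labelled as Large White × Landrace, at days 5, 28 and 56 of age, with 6 piglets and 6 arrays in each of 9 groups. OUT piglets stayed with their sow outdoors, and IN piglets with their sow indoors. IR piglets were taken from the indoor sows at 24 h of age and kept in isolator units with antibiotics every day. According to the methods, IR piglets received milk replacer up to weaning at day 28, when piglets of all treatments were weaned, and creep feed was given from the next day. All sows were inseminated by the same boar. Isolation, antibiotics and milk replacer therefore came together in IR, and age between days 28 and 56 came together with weaning and solid feed, so these parts cannot be told apart. Each piglet was killed at 1 age, so different ages are different animals.

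Villus enterocytes absorb sugars, amino acids, peptides, vitamins and minerals with apical carriers, many of them driven by sodium or protons, and pass them to the blood with basolateral carriers. In sucking mammals the epithelium of the ileum takes up macromolecules and lysosomes digest them, and this epithelium is replaced by the adult type as the animal grows. Carriers for sugars of solid feed are known to increase around weaning. Other SLC proteins sit inside the cell, where they load mitochondria, lysosomes, the endoplasmic reticulum and the Golgi apparatus.

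All values are log2 array signals, and differences are differences of log2 means, so that 1 unit is a 2-fold change. The medians of the 54 arrays lay between 3.98 and 4.21. The 10 measured enterocyte marker genes had a mean log2 level of 11.5 to 12.4 in the 9 groups, so epithelium was well represented. FABP6, the bile acid binding protein that marks mature ileal enterocytes, had median log2 values of 2.71 in IR, 2.97 in IN and 2.70 in OUT at day 5, and of 13.43, 13.98 and 13.58 at day 56. This marker was thus near the lowest signals in most piglets at day 5.

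OUT day 5 replicate 3 stood apart from the other arrays. Its mean correlation with its own group was 0.881, and the next lowest array, IN day 28 replicate 3, had 0.935. Its enterocyte markers had a mean of 9.40, against 11.7 to 12.1 in the other 5 OUT piglets of day 5. Its endothelial markers were at 8.12 and its macrophage markers at 9.04, above the 17 other day 5 arrays, which reached 7.16 and 7.20. Smooth muscle markers, at 12.79 against at most 12.04, and markers of enteric neurons and glia, at 5.08 against at most 4.39, were also above all 17, and brush border genes, at 4.53, were below their lowest of 9.72. Of the SLC genes, 45 had this array as a single value far from the rest of its group, and 29 of these were low there. SLC15A1, the proton-coupled peptide carrier PEPT1, was at 3.52 on this array, whereas SLC2A3, a glucose carrier of blood and nerve cells, was at 12.56. Age differences of the SLC genes named below are therefore also given without it where leaving it out ended a call, turned the direction or moved the value by over 1.5 times. In whole tissue, fewer cells of a type and less RNA per cell cannot be told apart.

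Of the 119 genes, 85 reached a log2 value of 4 on at least 6 arrays and 34 did not. The dim genes included SLC34A2, a phosphate carrier, SLC6A14, an amino acid carrier, and SLC9A3, the apical sodium-proton exchanger. Their highest values over all 54 arrays were 2.62 for SLC34A2, 2.48 for SLC6A14 and 3.29 for SLC9A3. SLC9A3R1, SLC9A3R2 and SLC2A4RG carry an SLC symbol but are a pair of scaffold proteins and a transcription factor. They were kept as the rule names them.

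Age was the factor with which SLC genes changed. A gene was called in an age comparison when the limma fit over 54 arrays gave a Benjamini-Hochberg adjusted p under 0.05, over 23999 probesets, and a difference of at least 2-fold as the mean of IR, IN and OUT. Between days 5 and 56, 12 SLC genes rose and 18 fell, and 89 were not called. Rising genes were 10.1% of the members, where 6.99% of all 6765 genes rose. Falling genes were 15.1%, where 7.12% of all genes fell. The median difference was -0.08 over the 119 members and -0.003 over all genes. Each of the 30 called genes moved in the same direction in IR, in IN and in OUT, and 17 moved at least 2-fold in each of the 3 treatments. Since the call was made on the mean of these 3 differences, a shared direction follows in part from the selection. The same counts are not given for all called genes. The 30 called genes were among the 85 brighter members. Without OUT day 5 replicate 3, 30 genes were called again, of which 28 were the same. SLC1A1 and SLC25A33, a mitochondrial carrier of pyrimidine nucleotides, fell short of 2-fold, and SLC2A3 and SLC46A3 were added.

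**Figure D1:**
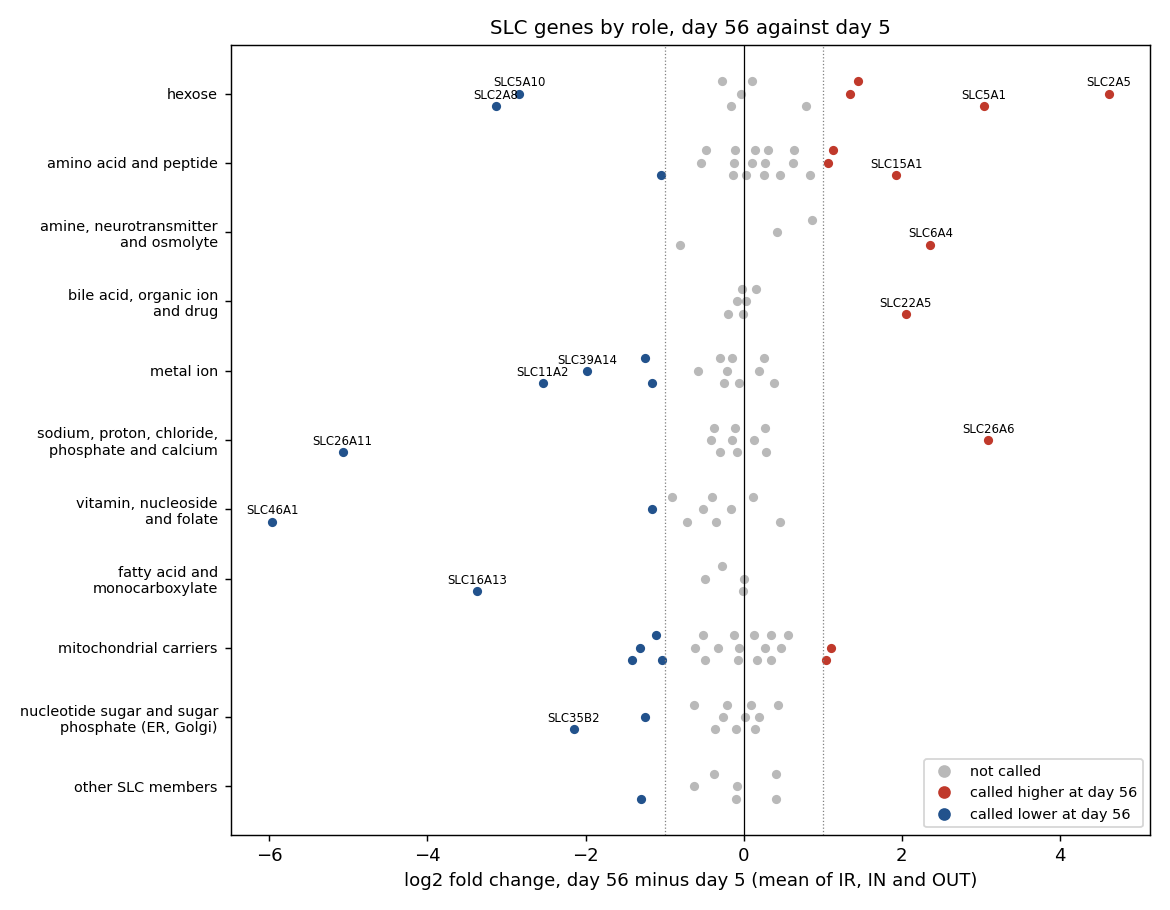
Difference in log2 signal between day 56 and day 5 (mean of IR, IN and OUT, horizontal axis) for each of 119 SLC genes (points), by role (vertical axis; within a role the points are spread vertically for legibility). Dotted lines mark 2-fold, and colours mark the 12 genes called higher, the 18 called lower and the 89 not called. SLC46A1 and SLC26A11 lie farthest to the left at -5.96 and -5.07, and SLC2A5 farthest to the right at 4.62.

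Among 11 hexose carriers, 4 rose and 2 fell between days 5 and 56. SLC2A5, the fructose carrier GLUT5, rose most. Over the 18 piglets of each age its lowest, median and highest log2 values were 3.84, 4.65 and 5.70 at day 5, 5.41, 7.24 and 8.88 at day 28, and 7.47, 9.25 and 10.28 at day 56. Every piglet of day 56 was above every piglet of day 5. The rise was 4.62 ± 0.24 (SE), or 24.5-fold, with an adjusted p of 3.7e-21 in limma. It was called at both steps, with 2.47 ± 0.24 from day 5 to 28 and 2.14 ± 0.24 from day 28 to 56. SLC5A1, the sodium-glucose carrier SGLT1, had lowest, median and highest values of 6.79, 10.06 and 11.50 at day 5, 10.17, 12.03 and 13.06 at day 28, and 12.23, 13.08 and 13.41 at day 56. Days 5 and 56 did not overlap. Its rise was 3.04 ± 0.25, with an adjusted p of 2.8e-14 in limma, and 2.82 without OUT day 5 replicate 3, whose 6.79 was the lowest value.

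The facilitative glucose carrier SLC2A1 rose by 1.34 ± 0.33 (adjusted p = 0.00061, limma), with overlapping ages. SLC5A4, a relative of SLC5A1 known as SGLT3, rose by 1.44 ± 0.46 (adjusted p = 0.0078, limma) and by 1.13 without OUT day 5 replicate 3. Its difference was 0.24 in IN, 1.84 in IR and 2.25 in OUT, where it was 1.31 without that array. The hexose carriers that fell were SLC2A8, the intracellular glucose carrier GLUT8, and SLC5A10, a sodium-coupled carrier of mannose and fructose. SLC2A8 had lowest, median and highest values of 3.30, 5.95 and 9.64 at day 5 and of 2.89, 3.24 and 3.89 at day 56, a fall of 3.14 ± 0.46. At day 5 the piglets were spread over more than 6 log2 units, and at day 56 all 18 were below 4. SLC5A10 fell by 2.84 ± 0.35, from a median of 5.83 to one of 3.23. SLC2A2, the basolateral glucose carrier GLUT2, had medians of 8.18, 8.26 and 7.79 at days 5, 28 and 56. Its difference of -0.03 between days 5 and 56 had a 95% confidence interval from -0.98 to 0.91, and it was -0.39 without OUT day 5 replicate 3.

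Among 19 carriers of amino acids and peptides, 3 rose, 1 fell and 15 were not called. SLC15A1, which takes up di- and tripeptides, had lowest, median and highest values of 3.52, 9.68 and 10.35 at day 5, 8.02, 10.15 and 11.07 at day 28, and 10.04, 11.39 and 12.52 at day 56. It rose by 1.36 ± 0.34 from day 28 to 56 (adjusted p = 0.003, limma). Between days 5 and 56 the rise was 1.93 ± 0.34, and 1.58 without OUT day 5 replicate 3. SLC1A5, a sodium-dependent carrier of glutamine and other neutral amino acids, rose by 1.24 ± 0.30 from day 5 to 28 and differed by -0.17 ± 0.30 between days 28 and 56. SLC1A1, the glutamate and aspartate carrier, rose by 1.12 ± 0.28 between days 5 and 56. Without OUT day 5 replicate 3 its difference was 0.98, just short of 2-fold, while its next brightest probesets differed by 1.57 and 1.55 over all arrays. SLC3A2, the heavy chain of several amino acid exchangers, fell by 1.04 ± 0.35 (adjusted p = 0.012, limma). The cystine and dibasic amino acid carrier is made of SLC7A9 and SLC3A1. SLC7A9 differed by 0.27 ± 0.37 between days 5 and 56 and was not called, and without OUT day 5 replicate 3, at 3.46, the sign turned, to -0.16 ± 0.15. The brightest probeset of SLC3A1 differed by 0.62 ± 0.37, or 0.22 without that array, and its other probeset by -0.65. SLC7A7, the light chain of a basolateral exchanger of dibasic amino acids, differed by 0.63 ± 0.26, or 0.42 without it, under 2-fold both times.

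Of 10 carriers of vitamins, nucleosides and folate, 2 fell and none rose between days 5 and 56. SLC46A1, the proton-coupled folate carrier of the upper intestine, had the greatest fall of the 119 genes. Its lowest, median and highest values were 4.84, 9.77 and 10.86 at day 5, 4.95, 6.04 and 8.97 at day 28, and 3.31, 3.64 and 4.49 at day 56. All 18 piglets of day 56 were below all 18 of day 5. The fall was 5.96 ± 0.38, or 62.3-fold, with an adjusted p of 5.7e-18 in limma. Its parts were 2.97 ± 0.38 up to day 28 and 2.995 ± 0.38 from then to day 56. A second probeset of SLC46A1 differed by -4.90 between days 5 and 56. Leaving out OUT day 5 replicate 3, which had the lowest value at day 5, gave a fall of 6.24. SLC23A2, a sodium-dependent ascorbate carrier, fell by 1.15 ± 0.21. The apical ascorbate carrier SLC23A1 differed by -0.71 ± 0.26, under 2-fold. SLC28A1, a sodium-coupled carrier of pyrimidine nucleosides, rose by 1.13 ± 0.43 from day 28 to 56 (adjusted p = 0.046, limma), and its difference between days 5 and 56 was 0.46 ± 0.43, or 0.16 without OUT day 5 replicate 3.

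SLC26A11, a carrier of chloride and sulfate, and SLC26A6, an apical exchanger of chloride for bicarbonate, oxalate and other anions, moved in opposite directions. SLC26A11 had lowest, median and highest values of 5.58, 10.45 and 11.09 at day 5, 4.53, 5.18 and 10.36 at day 28, and 3.98, 4.80 and 6.46 at day 56. OUT day 5 replicate 3 had the value of 5.58, and leaving it out moved the fall from 5.07 ± 0.47 to 5.34. A second probeset differed by -4.86. SLC26A6 had values of 5.51, 6.32 and 7.38 at day 5, 5.81, 8.66 and 9.39 at day 28, and 7.83, 9.36 and 10.31 at day 56. It rose by 3.09 ± 0.20, with an adjusted p of 1.8e-17 in limma, and days 5 and 56 did not overlap. The other 9 carriers of sodium, protons, chloride, bicarbonate, phosphate and calcium were not called between days 5 and 56. Among them SLC26A3, the chloride-bicarbonate exchanger of the lower gut, differed by 0.27 ± 0.28, and by -0.01 without OUT day 5 replicate 3, where it was at 4.98.

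Of 13 metal ion carriers, none rose and 4 fell between days 5 and 56. SLC11A2, the apical carrier of ferrous iron known as DMT1, had lowest, median and highest values of 6.59, 7.73 and 8.85 at day 5, 4.24, 6.87 and 9.16 at day 28, and 4.52, 5.15 and 6.33 at day 56. Days 5 and 56 did not overlap, and the fall was 2.54 ± 0.23 (adjusted p = 9.1e-13, limma). Its next brightest probeset differed by -1.55. SLC39A14, an importer of zinc and iron, fell by 1.98 ± 0.22 on the brightest probeset and differed by -2.53 on the other. SLC30A5, which brings zinc into the Golgi apparatus, fell by 1.25 ± 0.15, and SLC31A2, a carrier of copper, by 1.17 ± 0.29. SLC39A4, the apical zinc importer ZIP4, was the only gene called in opposite directions at the successive steps. It fell by 1.30 ± 0.35 from day 5 to 28 and rose by 1.24 ± 0.35 from day 28 to 56. Its medians were 9.13, 7.34 and 8.59. In OUT the steps were -0.46 and 0.10, in IR -1.23 and 2.09, and in IN -2.20 and 1.52. Without OUT day 5 replicate 3, at 4.74, the first step in OUT was -1.29.

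**Figure D2:**
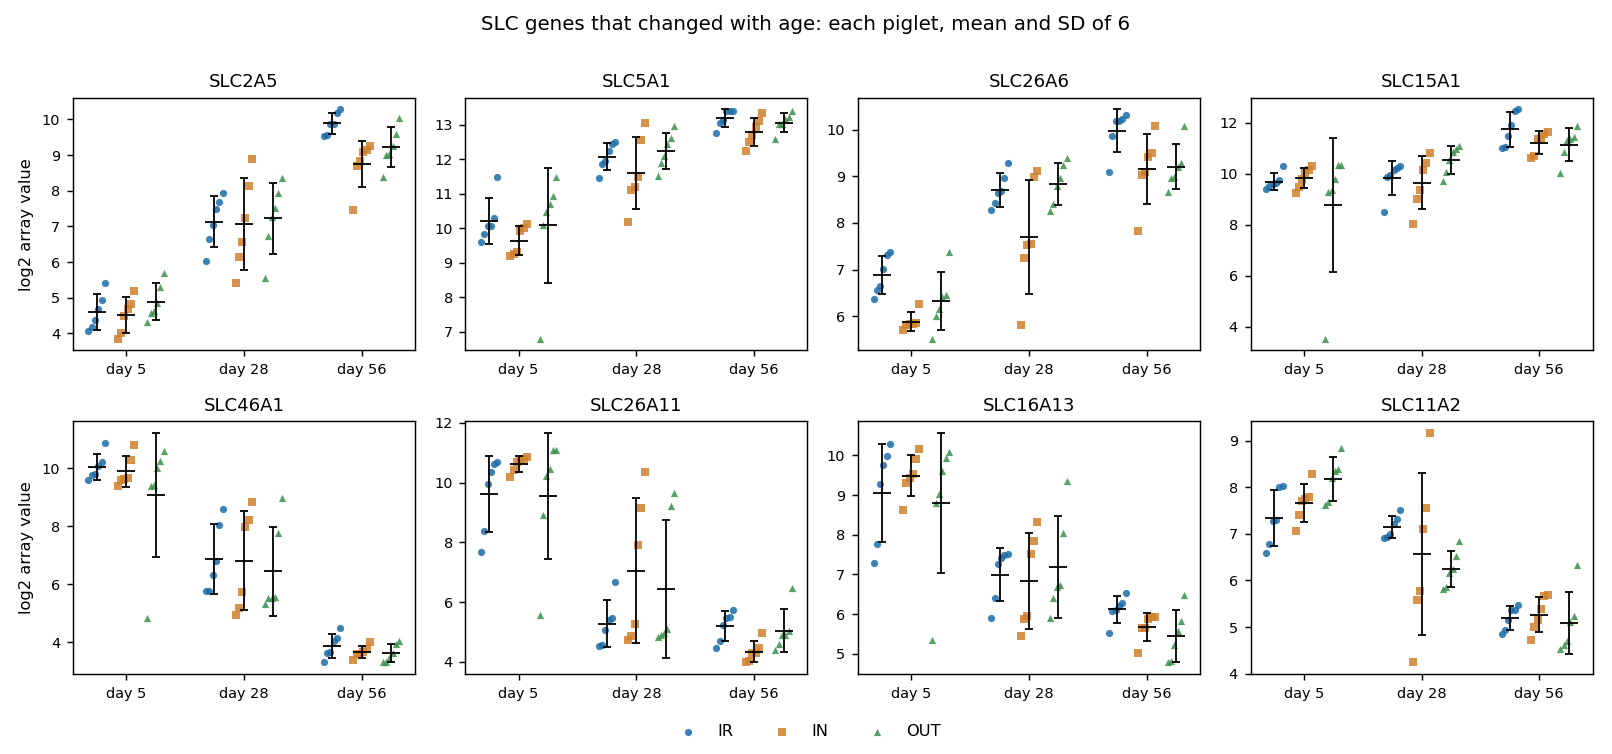
Log2 array value (vertical axis, a scale of its own in each panel) of 8 SLC genes in each of 54 piglets at days 5, 28 and 56 (horizontal axis), for IR (circles), IN (squares) and OUT (triangles). Points are sorted by value within a group, and bars give the mean and SD of 6 piglets. SLC2A5, SLC5A1 and SLC26A6 have no overlap between days 5 and 56 on the way up, nor SLC46A1 and SLC11A2 on the way down. OUT day 5 replicate 3 is the single low triangle at day 5 in SLC5A1, SLC15A1, SLC46A1, SLC26A11 and SLC16A13.

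Carriers of organelles moved in both directions. Of 20 members of the SLC25 family, most of which serve the mitochondrial inner membrane, 2 rose and 4 fell between days 5 and 56. SLC25A4, an exchanger of ADP and ATP, fell by 1.42 ± 0.22, and SLC25A36, a carrier of pyrimidine nucleotides, by 1.31 ± 0.22. SLC25A4 has close relatives, SLC25A5 and SLC25A6, so probes may bind more than their own transcript. SLC25A12, the aspartate-glutamate carrier, rose by 1.11 ± 0.15, and SLC25A24, which exchanges ATP-magnesium for phosphate, by 1.04 ± 0.18. Among 12 carriers of nucleotide sugars and sugar phosphates in the endoplasmic reticulum and Golgi apparatus, 2 fell and 10 were not called. SLC35B2, which brings the sulfate donor PAPS into the Golgi apparatus, had lowest, median and highest values of 6.71, 7.65 and 8.62 at day 5 and of 4.78, 5.53 and 6.13 at day 56. Its fall of 2.15 ± 0.15 was without overlap. SLC37A4, the carrier of glucose-6-phosphate into the endoplasmic reticulum, fell by 1.25 ± 0.27, and its other probeset differed by -1.09. SLC35C1, which carries GDP-fucose, rose by 1.03 ± 0.18 up to day 28 and differed by 0.10 ± 0.18 between days 5 and 56.

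In the smaller groups single genes moved. SLC22A5, the carnitine carrier OCTN2, was the only one of 7 carriers of bile acids, organic ions and drugs to be called. It rose by 2.24 ± 0.32 up to day 28 (adjusted p = 2.0e-07, limma) and differed by -0.19 ± 0.32 from there to day 56. SLC16A13, a monocarboxylate carrier, was the only one of 5 in its group to be called. Its medians were 9.48, 6.995 and 5.86, and its fall was 3.37 ± 0.33. SLC6A4, the serotonin carrier, rose by 2.36 ± 0.25 (adjusted p = 4.8e-11, limma). All 18 piglets of day 5 lay between 2.14 and 2.63, near the lowest signals, and the 18 of day 56 between 2.17 and 6.67. The creatine carrier SLC6A8 fell by 1.02 ± 0.27 up to day 28. SLC8B1, the sodium-calcium exchanger of mitochondria, fell by 1.30 ± 0.21 between days 5 and 56.

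By step, 7 SLC genes (5.88%) rose and 14 (11.8%) fell from day 5 to 28, where 6.71% of all genes rose and 4.6% fell. From day 28 to 56, 8 (6.72%) rose and 7 (5.88%) fell, where 1.02% of all genes rose and 1.55% fell. SLC26A6, SLC2A5 and SLC5A1 rose at both steps. SLC11A2, SLC16A13, SLC26A11, SLC35B2 and SLC46A1 fell at both. Another 12 genes were called at the first step alone and 6 at the second alone, and 9 were called only over the whole span. The second-step calls of SLC5A1 and SLC26A6 were close to the threshold, and several left-out arrays brought them under 2-fold, the most IN day 28 replicate 3, with 0.95 and 0.90. The first-step call of SLC11A2 was lost without IN day 28 replicate 2, at -0.91, and that of SLC35B2 without any of 3 arrays, the lowest being -0.98. In all, 36 genes were called in at least 1 age comparison and 83 in none. The ranges of days 5 and 56 did not overlap in 6 SLC genes, SLC2A5, SLC26A6, SLC5A1, SLC46A1, SLC11A2 and SLC35B2. Among all genes, 3.05% had no overlap.

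**Figure D3:**
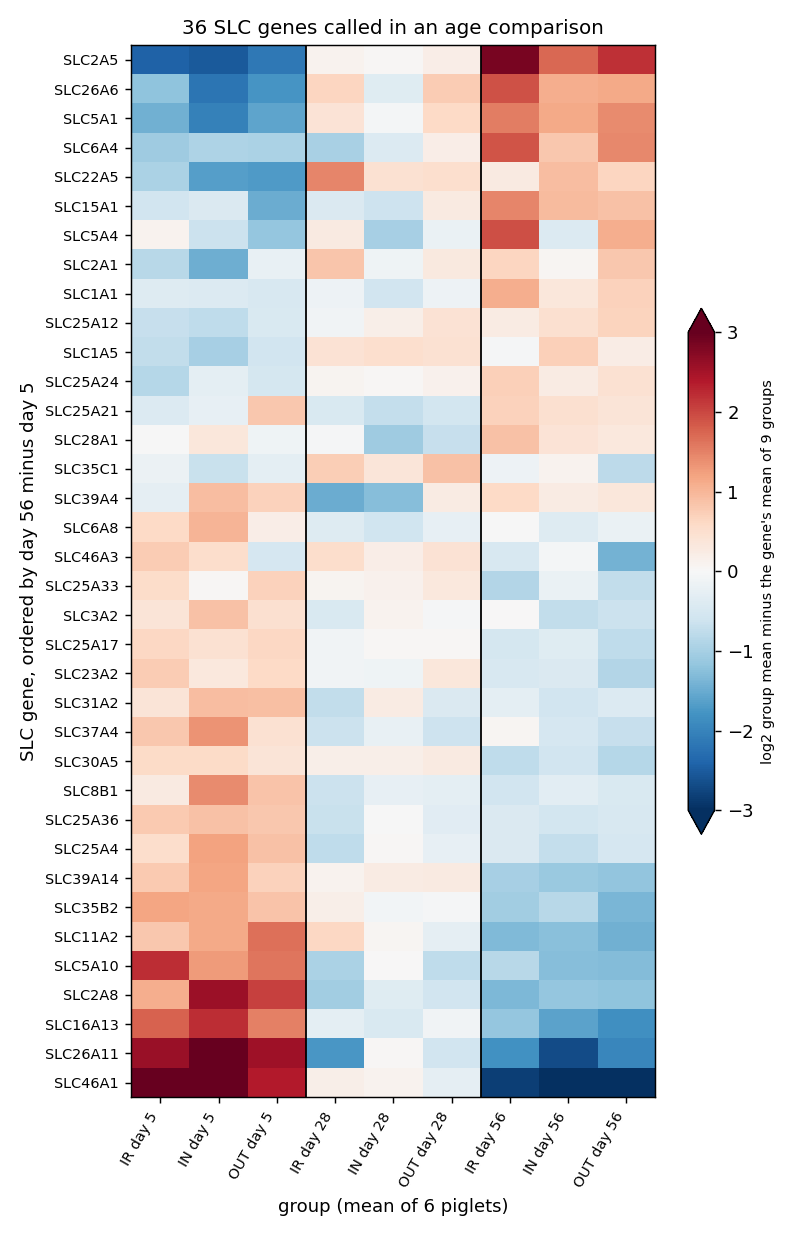
Mean log2 value of 6 piglets in each of 9 groups (columns, ordered by day), less the gene's mean over the 9 groups, for the 36 SLC genes called in at least 1 age comparison (rows, ordered by day 56 minus day 5). The colour scale ends at 3 units in each direction, and differences beyond it have the end colour. The top rows are low at day 5 and high at day 56 in all 3 treatments, as in SLC2A5, and the bottom rows the reverse, as in SLC46A1. SLC39A4 is lowest in IR and IN at day 28.

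Piglets of 1 group differed widely at day 28 in several of these genes. The SD within groups of SLC26A11 was 1.43, 1.99 and 0.55 at days 5, 28 and 56, and that of SLC46A1 was 1.30, 1.499 and 0.33. Without OUT day 5 replicate 3 their SDs at day 5 were 0.91 and 0.51. SLC2A8, with 1.99, 1.36 and 0.31, and SLC5A10, with 1.61, 0.75 and 0.62, were most spread at day 5. In IN at day 28, SLC26A11 was 4.86, 5.27, 10.36, 7.91, 9.15 and 4.74 in replicates 1 to 6. In OUT it was 9.22, 9.65, 4.83, 4.90, 4.97 and 5.10. In IR all 6 piglets were between 4.53 and 6.67. IN day 28 replicate 3 had the highest SLC26A11 (10.36), SLC2A8 (8.27) and SLC5A10 (6.72) of the 18 piglets of that day and the lowest SLC5A1 (10.17), SLC26A6 (5.81) and SLC22A5 (4.76). Its FABP6 was at 2.52, also the lowest of the 18. IN replicate 5 likewise had low FABP6 (6.33) with high SLC26A11 (9.15). In IR replicates 2 and 4 both were low, with FABP6 at 5.48 and 4.36 and SLC26A11 at 5.39 and 5.47. In OUT replicates 1 and 2 both were high, with FABP6 at 12.05 and 11.57 and SLC26A11 at 9.22 and 9.65. A relation of the 2 genes was not tested. With IN day 28 replicate 3 left out, the fall of SLC26A11 from day 28 to 56 was no longer called, at -1.18, nor was it without OUT day 28 replicate 2.

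Some other genes of the same tasks moved with age as well. Of 9 brush border hydrolases and their partners, 2 rose and 2 fell between days 5 and 56. ANPEP and DPP4, peptidases that release substrates for amino acid and peptide carriers, both rose by 1.34 over all arrays. In OUT at day 5 their lowest and median values were 4.44 and 12.88 for ANPEP and 8.95 and 11.14 for DPP4. The ANPEP medians of IR, IN and OUT were 13.18, 12.89 and 12.88 at day 5. At day 56 they were 13.96, 13.80 and 13.81, so by medians its rise was under 2-fold in each treatment. The DPP4 medians were 11.28, 11.06 and 11.14 at day 5 and 12.65, 12.44 and 12.43 at day 56, over 2-fold in each. The differences and counts of these other genes were not computed without OUT day 5 replicate 3, whose brush border genes had a mean of 4.53. Of 7 subunits of the sodium pump and ion channels of enterocytes, 3 fell. Of 5 genes of bile acid handling, 3 rose, among them FABP6 by 10.45 ± 0.67, and 1 fell. Of 6 genes of iron handling 1 fell. None of 5 enterocyte transcription factors and none of 2 genes of zinc storage and sensing was called. Markers of other cell types moved over the same days. T cell markers (7 genes) had group means of 3.30 to 3.45 at day 5 and of 6.82 to 7.73 at day 56, and 6 of the 7 rose. Of 6 endothelial markers 4 fell, of 7 enteroendocrine markers 2 fell, of 4 macrophage markers 3 rose and of 5 markers of dividing cells 2 rose. Of 6 markers of enteric neurons and glia 2 fell, of 4 fibroblast markers 1 fell and of 3 red blood cell markers 1 fell. Of 2 markers of B and plasma cells 1 rose. None of 3 goblet and Paneth cell markers and none of 6 smooth muscle markers was called. Among all genes, 6.99% rose and 7.12% fell between days 5 and 56. Enterocyte markers had group means of 11.5 to 12.1 at day 5 and of 12.2 to 12.4 at day 56, and 3 of the 10 rose. The 11.5 is that of OUT, which includes OUT day 5 replicate 3 at 9.40. The part of these shifts in the SLC differences was not tested.

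Few SLC genes were called between treatments, in comparisons that had fewer piglets than those of age. Within each day, a gene was called at an unadjusted p under 0.01 in limma and a difference of at least 2-fold, the criteria of the study. The fit of the study also had the run as a block, which the labels do not name. Over the 9 comparisons, 7 SLC genes were called, SLC23A1 in 2 of them, and 112 were called in none. At day 5 no SLC gene was called. At this criterion 0.517% of all genes were called for IR against OUT, 0.0296% for IN against OUT and 0.665% for IR against IN. At an unadjusted p under 0.05, the SLC counts at day 5 were 8, 3 and 8, or 6.72%, 2.52% and 6.72% of the members, beside 8.13%, 3.44% and 10.9% of all genes. At day 28, 2 SLC genes were called for IR against OUT (0.31% of all genes), 0 for IN against OUT (0.192%) and 0 for IR against IN (0.591%). The study, with its block, lists SLC3A1 as lower in IN than in OUT at this age. The SLC counts at an unadjusted p under 0.05 were 5, 13 and 10, or 4.2%, 10.9% and 8.4%, beside 2.69%, 5.82% and 8.87% of all genes. At day 56, 2 SLC genes were called in each comparison, where 0.414%, 0.399% and 0.503% of all genes were called for IR against OUT, IN against OUT and IR against IN. With 1 array left out these counts ran from 0 to 8, 0 to 4 and 1 to 3, and the 8 came without OUT replicate 1. At an unadjusted p under 0.05 there were 15, 16 and 13 SLC genes, or 12.6%, 13.4% and 10.9%, beside 7.97%, 8.81% and 7.2% of all genes. Of these 12, 13 and 10 were higher in the group named first. At day 28 it was 2, 1 and 9 of the 5, 13 and 10, and at day 5 it was 6, 2 and 5 of the 8, 3 and 8. Directions over all genes were not counted. No SLC gene had an adjusted p under 0.05 in any of the 9 comparisons, the lowest being 0.322, and 0.0739% of all genes had one in at least 1 comparison. The comparisons of a day share groups: IR and IN are set against the same OUT piglets.

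SLC39A4 was lower in IR than in OUT at day 28. Its lowest, median and highest values were 5.92, 6.77 and 7.34 in IR, 7.95, 8.28 and 9.33 in OUT, and 4.77, 7.18 and 8.81 in IN. All 6 IR piglets were below all 6 OUT piglets, and IN overlapped both. The difference between IR and OUT was -1.74 ± 0.55 (limma p = 0.0056, adjusted p = 0.999, exact permutation p = 0.00216). The exact test was two-sided, and this is the smallest p that 6 against 6 can give. Here and below it was run on genes already picked for their difference on the same arrays. Its p is not adjusted for that choice and is no independent support. The difference between IN and OUT was -1.51 ± 0.55 (adjusted p = 0.977, limma), which was not called. At day 5 the difference between IR and OUT was -0.96 ± 0.79. Without OUT day 5 replicate 3, where SLC39A4 was at 4.74, it was -1.80 and met the criteria. The only other gene to meet them at day 5 without that array was SLC5A1, in IN against OUT, at -1.11, where all arrays gave -0.45. At day 56 the difference of SLC39A4 between IR and OUT was 0.24 ± 0.30, and the groups overlapped. The call at day 28 was lost, at -1.56 to -1.73, without IR replicate 1, 2 or 6 or OUT replicate 1 or 6.

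MT1A, a metallothionein that binds zinc and whose transcription responds to it, is given beside SLC39A4. At day 5 its lowest, median and highest values were 6.41, 11.38 and 14.04 in IR, 3.47, 4.55 and 5.73 in IN, and 3.96, 5.63 and 9.44 in OUT. At day 28 the medians were 11.59, 9.09 and 5.91. At day 56 they were 10.57, 7.29 and 7.81. At day 5 MT1A met the criteria in IR against OUT, at 4.84 ± 1.24 (adjusted p = 0.518, limma), and in IR against IN, at 6.37 ± 1.24 (adjusted p = 0.132, limma). At day 28 the difference between IR and OUT was 3.70 ± 1.53 (adjusted p = 0.999, limma) and was not called. In the study, whose fit had the run as a block, a metallothionein named MT1J was higher in IR than in OUT at days 5 and 28. Its real-time PCR gave the same direction at both ages, with p under 0.05 in t-tests.

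SLC6A4 was the other gene called at day 28. IR piglets had lowest, median and highest values of 2.07, 2.501 and 2.64, and OUT piglets of 2.45, 3.81 and 4.39. The IR values lay about where those of all piglets lay at day 5, and 5 of the 6 OUT piglets were above every IR piglet. The difference was -1.18 ± 0.37 (limma p = 0.0057, adjusted p = 0.999) with an exact permutation p of 0.0108. At day 56 IR had 3.80, 5.56 and 6.67 and OUT 4.16, 4.69 and 5.75, and the difference was 0.46 ± 0.60. The call at day 28 was lost, at -1.01 to -1.13, without IR replicate 3 or 4 or OUT replicate 1, 3, 5 or 6.

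**Figure D4:**
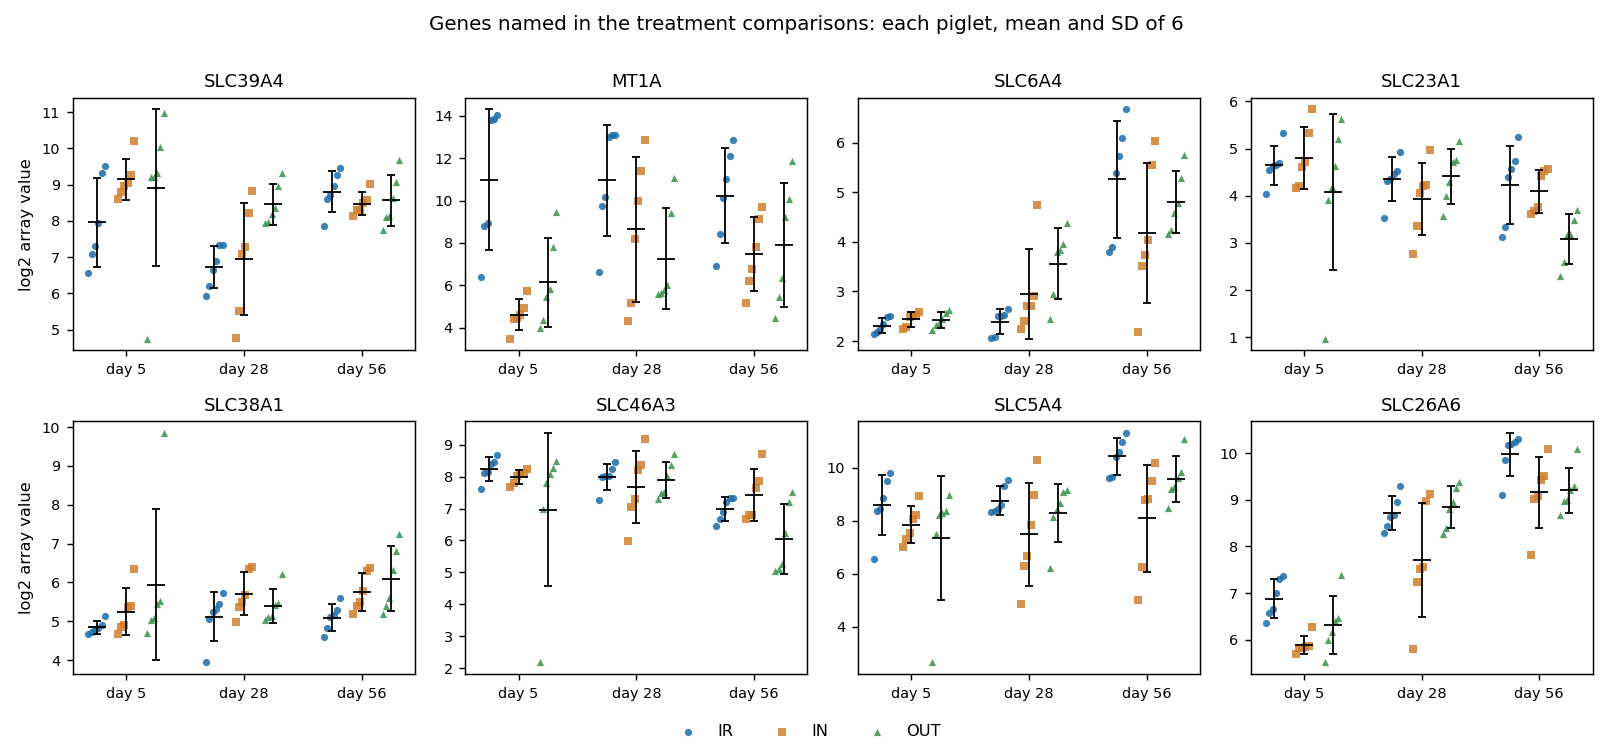
Log2 array value (vertical axis, a scale of its own in each panel) of 7 SLC genes and of MT1A in each of 54 piglets at days 5, 28 and 56 (horizontal axis), for IR (circles), IN (squares) and OUT (triangles), with the mean and SD of 6 piglets as bars. SLC39A4 of IR lies between 5.92 and 7.34 at day 28, below all OUT piglets. In MT1A the IR median is the highest of the 3 at each age.

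At day 56 the genes called were carriers of sugars, ascorbate and amino acids and a lysosomal protein. SLC2A5 was higher in IR than in IN. Its lowest, median and highest values were 9.55, 9.87 and 10.28 in IR, 7.47, 8.97 and 9.25 in IN, and 8.39, 9.13 and 10.03 in OUT. All IR piglets were above all IN piglets, with a difference of 1.14 ± 0.29 (limma p = 0.0010, adjusted p = 0.457) and an exact permutation p of 0.00216. Without IN replicate 2, which had the lowest value, the difference was 0.88 and under 2-fold. SLC5A4 was higher in IR, at 9.62, 10.49 and 11.31, than in IN, at 5.03, 8.79 and 10.16. The difference of 2.34 ± 0.71 (limma p = 0.0041, adjusted p = 0.651) had an exact permutation p of 0.0087. The call was lost without the unnumbered IR array, at 2.16, or without IN replicate 1, at 1.97. For SLC5A1 the same contrast was under 2-fold, with medians of 13.26 in IR and 12.82 in IN.

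SLC23A1 was lower in OUT than in both other groups. OUT piglets had 2.30, 3.18 and 3.70, IN piglets 3.61, 4.09 and 4.57, and IR piglets 3.11, 4.48 and 5.24. The difference was 1.15 ± 0.34 for IR against OUT (adjusted p = 0.649, limma; exact permutation p = 0.026) and 1.02 ± 0.34 for IN against OUT (adjusted p = 0.532, limma; exact permutation p = 0.0065). In each comparison 4 of 6 piglets were above all OUT piglets. The call for IR was lost without IR replicate 1 (0.95) or OUT replicate 2 (0.999). The call for IN was lost, at 0.86 to 1.04, without the unnumbered IN array, IN replicate 4 or 5, or OUT replicate 2, 4, 5 or 6. SLC38A1, a sodium-coupled carrier of glutamine and alanine, was lower in IR (4.60, 5.13 and 5.59) than in OUT (5.19, 5.96 and 7.25), with a difference of -1.002 ± 0.32 (adjusted p = 0.653, limma; exact permutation p = 0.0195). This call was lost, at -0.77 to -1.005, without IR replicate 1, 3 or 5 or OUT replicate 2, 5 or 6. SLC46A3, a lysosomal relative of the folate carrier, was higher in IN (6.68, 7.23 and 8.72) than in OUT (5.05, 5.74 and 7.51), with a difference of 1.36 ± 0.44 (adjusted p = 0.514, limma; exact permutation p = 0.0433). This call was lost, at 1.10 to 1.32, without the unnumbered IN array, IN replicate 4 or 5, or OUT replicate 2, 5 or 6.

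Of the 8 calls, that of SLC39A4 was kept under every alternative setting other than a left-out array. With all 9 groups in 1 fit, both calls of SLC23A1 and those of SLC38A1 and SLC46A3 were lost, and with the label's number as a replicate block those of SLC6A4, SLC46A3, SLC2A5 and SLC5A4.

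SLC26A6 had the lowest adjusted p of an SLC gene in a treatment comparison. At day 5 the IR piglets had lowest, median and highest values of 6.37, 6.83 and 7.37, the IN piglets 5.69, 5.83 and 6.27, and the OUT piglets 5.51, 6.28 and 7.38. All IR piglets were above all IN piglets. The difference of 0.997 ± 0.25 (limma p = 0.00081, adjusted p = 0.322, exact permutation p = 0.00216) was just under 2-fold and so was not called. IR minus IN was 1.01 ± 0.43 at day 28 and 0.82 ± 0.32 at day 56, with overlapping groups at both ages. It was picked after its values were seen, as the member with the lowest p.

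A difference between treatments that changed with age was tested in limma with a moderated F-test over 4 degrees of freedom. No SLC gene and 0% of all genes had an adjusted p under 0.05, and the lowest of an SLC gene was 0.687. At an unadjusted p under 0.05 there were 8 SLC genes, or 6.72% of the members, beside 8.12% of all genes.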

How the data were processed

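Total RNA from ileal tissue of 54 piglets had been labelled and hybridised to Affymetrix GeneChip Porcine Genome arrays, 1 array a piglet. The authors scanned with GCOS 1.2 and deposited log2 signals normalized by GCRMA, which were used as deposited. The number of piglets, 6 a group, limits the precision. The table held 24123 probesets. Tests used 23999 of them, that is all but 124 controls, and dim probesets were not filtered out. The platform annotation gives 10069 of these a single symbol. 5 SLC probesets with several symbols were left out. Of the 119 SLC genes, 117 have the same symbol in RefSeq under their gene identifier, and 2 were not matched.

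Groups came from the labels. The study used 3 consecutive runs as a block, but the labels name no run, so the main fits have no block. Litters are not named either, and piglets were taken as independent. Fits were made in R 4.3.3 with limma 3.58.1 (lmFit and eBayes): treatments on the 18 arrays of a day, ages and the treatment by day F-test on 54 arrays. Adjusted p-values are Benjamini-Hochberg over all probesets. Exact permutation tests over 924 splits were two-sided, unadjusted and run on genes already picked from the treatment comparisons. SE is that of the fitted difference. The scripts were tested on simulated data, and figures were drawn with matplotlib 3.10.9.

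The members and lists were chosen with earlier results of these data known. Genes named by value were a fixed panel of 33 carriers, of which 23 have a single-symbol probeset (the others are not analysed here), up to 6 called genes with the largest change in each treatment comparison, and the 6 highest and 6 lowest called in each age comparison. Further genes named in the role groups were chosen after their values were seen. Alternatives covered normalization, dim probesets, the variance model, the probeset of a gene, blocks and each array left out.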

Additional observations from a re-analysis of the deposited data

Results flagged for a closer look

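For 14 SLC genes, those called in a treatment comparison or at both age steps, each of the 9 groups was tested for a piglet set apart from the other 5 by Dixon's ratio. Of 126 sets, 18 had such a value, where chance gives about 1 in 20. Over all 119 genes it was 120 of 1071 sets, or 11.2%.

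OUT day 5 replicate 3 held 8 of the 18. It was below the other 5 OUT piglets of day 5 in SLC16A13 at 5.34, SLC23A1 at 0.963, SLC39A4 at 4.74, SLC46A1 at 4.84, SLC46A3 at 2.18, SLC5A1 at 6.79 and SLC5A4 at 2.66. It was above them in SLC38A1 at 9.85, where the others reached 5.53. Its enterocyte, endothelial and macrophage markers stood apart as well, as given with the results, and their part in these values was not tested.

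The other 10 values were spread over 9 arrays. At day 5, SLC26A6 was at 6.27 in IN replicate 4 and SLC5A1 at 11.5 in IR replicate 2, both above their groups. At day 28, SLC38A1 was at 6.23 in OUT replicate 2 and SLC6A4 at 4.74 in IN replicate 4, above their groups, and SLC5A4 was at 6.23 in OUT replicate 3, below its group. At day 56, SLC26A11 was at 6.46 in OUT replicate 1 and SLC35B2 at 6.08 in OUT replicate 5, above their groups. IN replicate 2 of that day was below its group in SLC16A13 at 5.01 and in SLC2A5 at 7.47, and IR replicate 5 in SLC26A6 at 9.1.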

How the results depend on the processing

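The age counts stayed within 1.5 times of 21, 15 and 30 under every alternative run: 17 to 23, 12 to 17 and 29 to 32. Of the 66 age calls, 49 held under each of them, and 17, of 1.02 to 1.40 in size, fell short of a threshold under at least 1. None of these 66 values changed sign. Of all 119 differences between days 5 and 56, 6 changed sign without OUT day 5 replicate 3 (a set chosen after seeing the data), none of them called with or without it, among them SLC7A9 (0.27 to -0.16) and SLC26A3 (0.27 to -0.01). The test of treatment by day gave 0 SLC genes throughout. Treatment counts were small and moved easily. In the order IR minus OUT, IN minus OUT and IR minus IN, leaving out 1 array gave 0 to 1, 0 to 1 and 0 to 1 at day 5, 0 to 3, 0 to 3 and 0 to 2 at day 28, and 0 to 8, 0 to 4 and 1 to 3 at day 56, where OUT replicate 1 left out gave the 8. With all 9 groups in 1 fit, IR minus OUT and IR minus IN at day 5 and IN minus OUT and IR minus IN at day 28 had 1 call each, and IR minus OUT and IN minus OUT at day 56 had 0. Subtracting each array's median gave 1 for IR minus OUT at day 56, and an intensity trend with robust fitting 1 for IN minus OUT at day 28. With the label's number as a replicate block, IR minus OUT and IN minus OUT at day 28 had 1 each, IN minus OUT at day 56 had 1 and IR minus IN 0. With the number in twos as a replicate block, IN minus OUT at day 28, IN minus OUT at day 56 and IR minus IN at day 56 had 1 each. Numbered arrays without a block gave 0 for IN minus OUT and 1 for IR minus IN at day 56. Fitting only the 2 groups compared, with the number in twos as a replicate block, gave 1 for IR minus IN at day 56 (chosen after seeing the data). The causes of these moves were not tested. Correlations of the deviations of same-numbered piglets from their group means ran from -0.483 to 0.365 at day 5 (median 0.028; other pairs -0.019), -0.433 to 0.680 at day 28 (0.090; -0.011) and -0.235 to 0.260 at day 56 (0.001; -0.005). Since not every pair was over 0.1, the numbers were not read as pairs. Probesets near the lowest signals limit what can be seen of the 34 dim genes.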
